A study of Homo sapiens with 12 samples.

Results

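Transcripts of 8 enzymes that set the supply of deoxynucleotides for DNA synthesis were followed after knockdown of CENPF, of FOXM1 and of both. The members were RRM1, RRM2, TYMS, TK1, DUT, DCK, DTYMK and SAMHD1, found by symbol in the authors' tables and read by gene identifier in all 12 libraries. They are 8 of the 14857 genes tested, and all 8 passed the filter on low values. The cells were parental hTERT-RPE1, a retinal pigment epithelial line that proliferates through an added telomerase gene. Each siRNA was used at 20 nM and RNA was taken at 48 h. The groups were a negative control siRNA (siNeg), an siRNA to CENPF (siCENPF), an siRNA to FOXM1 (siFOXM1) and the pair given together (siCENPF+siFOXM1), with 3 libraries each, numbered 1 to 3. CENPF encodes a kinetochore protein, and FOXM1 a transcription factor of genes used in G2 and mitosis. The knockdowns were transient, the cells came from 1 line, and only polyadenylated RNA was measured. Nothing in the labels says that the libraries of a group came from separate cultures, so p-values measure the spread between these libraries, which may be technical. The siRNA sequences, and whether the paired treatment held 20 nM of each, are not given in the sources used here.

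DNA synthesis draws on 4 deoxynucleoside triphosphates. In the de novo route ribonucleotide reductase, a complex of the large subunit RRM1 and the small subunit RRM2, reduces ribonucleotides to deoxyribonucleotides, and RRM2 is the subunit whose level follows the cell cycle. Thymidine nucleotides need further steps: DUT hydrolyses dUTP to dUMP, TYMS methylates dUMP to dTMP with a folate cofactor, and DTYMK phosphorylates dTMP. Salvage kinases work in parallel, TK1 on thymidine and DCK on deoxycytidine and the purine deoxynucleosides. SAMHD1 works the other way, as a hydrolase that breaks down deoxynucleoside triphosphates and also restricts viruses. Many genes of this group are known targets of E2F factors and are transcribed most in late G1 and S phase.

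The targeted transcripts were low in every library that received their siRNA. CENPF stood at 10.8% of siNeg with siCENPF and at 15.8% with both siRNAs. FOXM1 stood at 15.2% with siFOXM1 and at 17.7% with both. With the siRNA to the other gene alone, CENPF stood at 89.8% and FOXM1 at 86.2% of siNeg, and neither passed the test (limma adjusted p = 0.802 and 1.00). Libraries held 13671250 to 35411230 reads in genes, with the most in siNeg 3 and siCENPF 3. The members were read from 697 (SAMHD1) to 19033 (RRM2) whole reads per library. Of 13 markers of differentiated pigment epithelium, 7 passed the filter. The highest were BEST1 at 38.7 FPKM in siNeg and the general epithelial keratins KRT8 at 18.9 and KRT18 at 33.6. The others that passed were low, with MITF at 1.09, PMEL at 0.670, OTX2 at 0.296 and SERPINF1 at 0.147 FPKM in siNeg. RLBP1, TYRP1, TTR and LRAT did not pass, and RPE65 and TYR were listed at 0 in every group. Of 12 blood, endothelial and keratinocyte markers, only KRT14 (2.15 FPKM in siNeg) and PECAM1 (0.0558) passed it.

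The promoters are shown for the genes whose values the results turn on: RRM2, the only member called lower in all 3 comparisons with siNeg when replicate number was a block, its partner RRM1, and SAMHD1, whose level split the libraries by replicate number. The reference table from RefSeq (GRCh38.p14, the hg38 build used by the authors) held 13 start sites for the 8 members. The 250 bases before the start are printed 5′ to 3′ on the coding strand, with capitals at matches to any of the letters searched. RRM2 lies on the plus strand at chr2:10122489-10122738, RRM1 on the plus strand at chr11:4094435-4094684 and SAMHD1 on the minus strand at chr20:36951709-36951958.
RRM2: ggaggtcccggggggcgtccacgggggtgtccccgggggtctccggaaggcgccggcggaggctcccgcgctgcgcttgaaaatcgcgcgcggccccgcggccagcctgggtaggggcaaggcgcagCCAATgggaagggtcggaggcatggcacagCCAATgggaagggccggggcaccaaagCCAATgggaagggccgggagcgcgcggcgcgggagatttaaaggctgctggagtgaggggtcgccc
RRM1: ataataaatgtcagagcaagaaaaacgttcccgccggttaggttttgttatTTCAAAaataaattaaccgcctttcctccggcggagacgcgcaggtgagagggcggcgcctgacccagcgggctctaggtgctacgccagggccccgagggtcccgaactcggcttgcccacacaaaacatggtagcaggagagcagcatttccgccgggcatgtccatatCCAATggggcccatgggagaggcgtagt
SAMHD1: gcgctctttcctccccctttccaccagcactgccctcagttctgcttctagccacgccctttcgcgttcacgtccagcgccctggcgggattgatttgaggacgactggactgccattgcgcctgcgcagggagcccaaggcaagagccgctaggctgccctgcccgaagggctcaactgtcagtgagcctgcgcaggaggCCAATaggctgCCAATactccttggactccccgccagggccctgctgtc

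RRM2 held 3 copies of CCAAT, the letters bound by NF-Y, with first bases at -123, -93 and -66 from the start. RRM1 held 1 copy at -28 and SAMHD1 held 2, at -49 and -38. RRM1 also held TTCAAA at -199, the reverse strand of TTTGAA, a core of the cell cycle homology region. CCAAT was present in 5 of the 8 members (DTYMK and TK1 too) and in 39.7% of the 27305 genes of the table. By window of 300 bases, searched on both strands, it was present in 6 of 13 windows of the members and in 34.6% of all 35116. A second RRM2 start lies upstream, and its window held 1 copy.

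A match to TTTNNCGC, letters like those of an E2F site, was found in 3 of 8 members, against 8.23% of all genes, and in 3 of their 13 windows, against 6.89% of all windows. The stretches around the matches are given for TYMS, for the downstream DUT start and for DCK, where GCGGGAAA and GCGCCAAA are such letters read from the reverse strand. TYMS lies at chr18:657604-657631, DUT at chr15:48332145-48332172 and chr15:48332160-48332187, and DCK at chr4:70993660-70993687, all on the plus strand.
TYMS: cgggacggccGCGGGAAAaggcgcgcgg
DUT first: ggcggggctgGCGGGAAAtttcggtttt
DUT second: aaatttcggtTTTGGCGCgctccctgcg
DCK: ctgcctccgcGCGCCAAAgtcaaacccc
The DCK match begins at base 22 after the start, so that 2 of 8 members remained when only the bases before the start were searched. TTTGAA was found in DUT and RRM1 (18.2% of all genes, 15.2% of all windows), and TAAACA, a forkhead core, in upstream windows of DUT and TK1 (14.7% of genes, 12.3% of windows). GAAANNGAA, a core of interferon response elements, was searched after the values of SAMHD1 had been seen. No window of a member held it, against 9.86% of all genes and 8.11% of all windows. These are matches of letters in short windows and show nothing about binding.

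The ribonucleotide reductase subunits were both highest in siNeg. RRM2 (ENSG00000171848, chromosome 2, 10122328 to 10131419, plus strand) is given in normalized counts, counts that the authors scaled to similar library sizes. In libraries 1 to 3 of siNeg RRM2 had 7751, 7198 and 10198 of them. The siCENPF libraries had 6895, 6208 and 8125, those of siFOXM1 6577, 5860 and 7143, and those given both siRNAs 6251, 5353 and 6784. Every siFOXM1 library and every library with both siRNAs was below every siNeg library, while siCENPF overlapped siNeg. In each replicate number the order was the same: siNeg highest, then siCENPF, then siFOXM1, then both.

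Within numbers 1, 2 and 3 the RRM2 value differed from siNeg by -11.0%, -13.8% and -20.3% with siCENPF, by -15.1%, -18.6% and -30.0% with siFOXM1 and by -19.3%, -25.6% and -33.5% with both. The group means were 8382 ± 1597 (SD, n = 3) in siNeg, 7076 ± 972 with siCENPF, 6527 ± 643 with siFOXM1 and 6129 ± 723 with both, which is 84.4%, 77.9% and 73.1% of siNeg. In the fit of 4 group means, limma gave log2 fold changes of -0.24, -0.35 and -0.44 (SE 0.14 each), with adjusted p = 1.00, 0.552 and 0.375 over all genes. With libraries left out these values ran from -0.34 to -0.087, from -0.45 to -0.20 and from -0.54 to -0.29, each nearest to 0 without siNeg 3. Libraries with the same number deviate together in these data, and with the number as a block the SE fell to 0.052. RRM2 then fell in all 3 comparisons (limma adjusted p = 0.00614, 4.84e-05 and 1.91e-06). With each library or number of a comparison left out in turn under the block, the calls held in 7 of 9 settings for siCENPF, 9 of 9 for siFOXM1 and 9 of 9 for both siRNAs. For siCENPF the call was lost without replicate number 3 (adjusted p = 0.137) and without siNeg 3 (0.0775). RRM2 shares 1077 exon bases with AC007240.1 on the same strand, and the annotation names 3 pseudogenes of it.

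RRM1 (ENSG00000167325, chromosome 11, 4094707 to 4138876, plus strand) varied less. The siNeg libraries had 4448, 4163 and 4951 normalized counts, followed by 4049, 4039 and 4329 for siCENPF. The siFOXM1 libraries had 4090, 3873 and 4258, and those given both siRNAs 4072, 3949 and 4023. The 3 libraries with both siRNAs lay below all siNeg libraries, and the single knockdowns overlapped siNeg. Mean levels were 91.6%, 90.1% and 88.8% of siNeg. The log2 fold changes were -0.12, -0.15 and -0.17 (SE 0.079, limma adjusted p = 1.00, 0.715 and 0.692). With the block RRM1 fell with both siRNAs (limma adjusted p = 0.0378), a call kept only without replicate number 2 or siNeg 2 (0.0153 and 0.0194) among 9 settings that leave libraries out. Without siNeg 3 the adjusted p was 0.225.

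The larger difference in RRM2 than in RRM1 was measured as the ratio of their FPKM, a value per length, within each library. The RRM2 to RRM1 ratio was 2.07, 2.05 and 2.44 in siNeg libraries 1 to 3, 2.02, 1.82 and 2.23 with siCENPF, 1.91, 1.80 and 1.99 with siFOXM1 and 1.82, 1.61 and 2.00 with both. It was lower in 3 of 3 numbers in each comparison. The size of such a ratio depends on the gene lengths used, while its differences between groups do not. Rescaled to merged exon lengths, the siNeg means were 82.9 for RRM2 and 57.0 for RRM1, against 28.2 and 12.8 in FPKM. The log2 ratio differed from siNeg by -0.11, -0.20 and -0.27 (exact two-sided permutation p = 0.4, 0.1 and 0.1). With 3 libraries against 3 the smallest p is 0.1, and over the 15 ratio tests the adjusted p of the latter pair was 0.75.

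**Figure D1:**
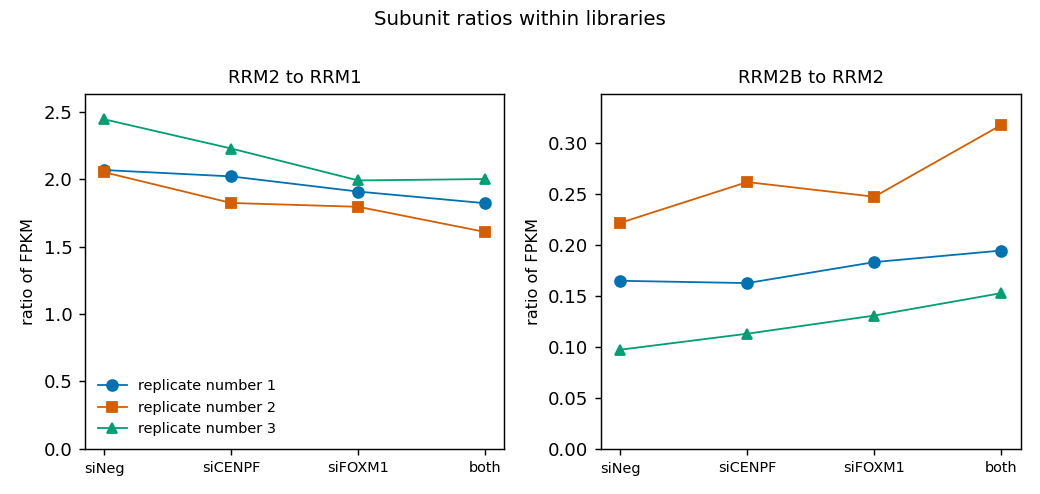
Ratio of FPKM of RRM2 to RRM1 (left) and of RRM2B to RRM2 (right) in each of the 12 libraries by group, with lines joining libraries of the same replicate number. The RRM2 to RRM1 ratio was highest in siNeg within each number, and RRM2B to RRM2 kept the order of the numbers, with number 2 highest.

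RRM2B, the p53-inducible small subunit that serves cells outside S phase, showed no such order. The siNeg libraries had 1171, 1460 and 906 normalized counts and those of both siRNAs 1114, 1556 and 950, and its log2 fold changes were -0.091, -0.10 and 0.030. The groups overlapped, and number 2 was the highest in each. The ratio of RRM2B to RRM2 in FPKM ran from 0.0971 in siNeg 3 to 0.317 in the library with both siRNAs numbered 2. Against siNeg it was higher in 3 of 3 numbers with siFOXM1 and with both (log2 difference 0.25 and 0.47, exact permutation p = 0.6 and 0.5).

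**Figure D2:**
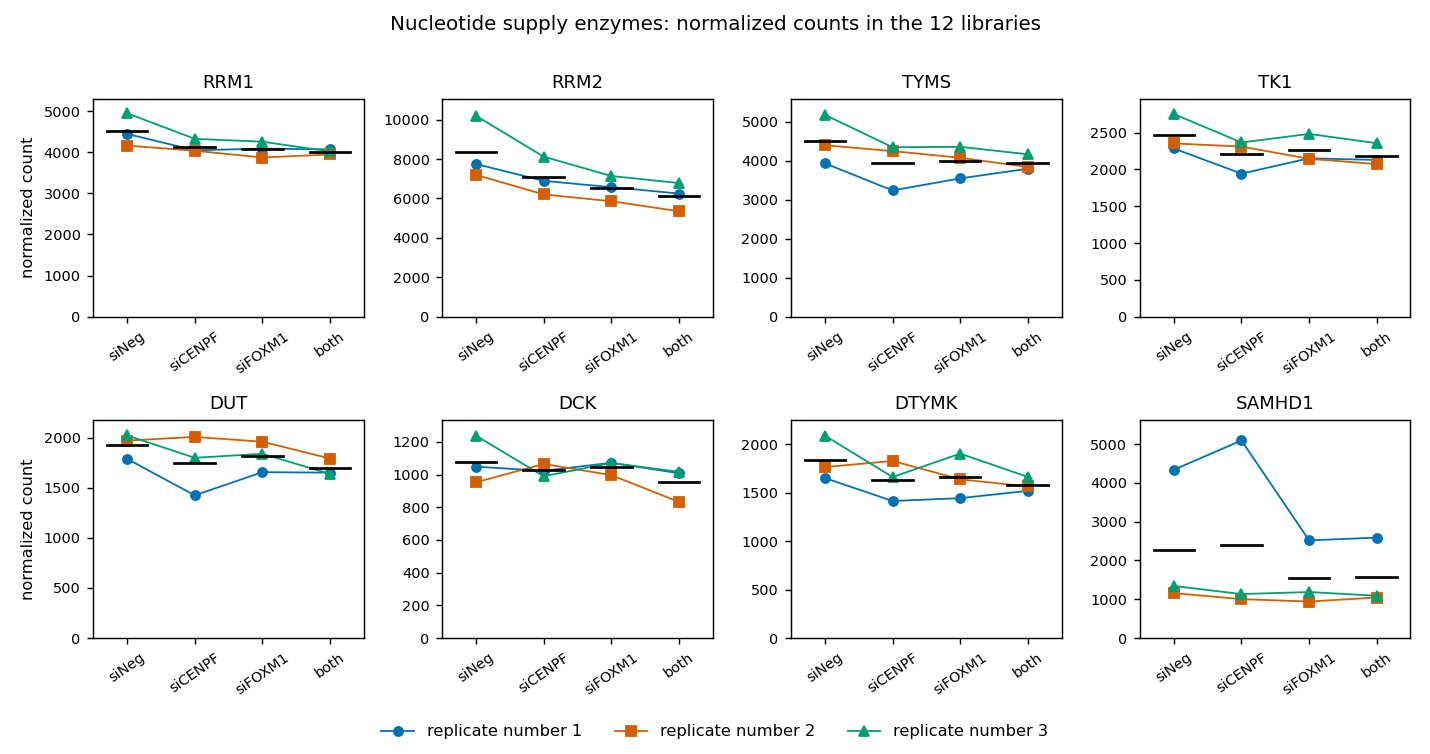
Normalized counts of the 8 enzymes in the 12 libraries by group, with 1 panel per gene and its own linear axis from 0. Points joined by a line share a replicate number and black bars are group means. RRM2 is lower with both siRNAs than in siNeg within each number, and SAMHD1 is high in the 4 libraries numbered 1.

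The thymidylate branch held DUT, TYMS and DTYMK. TYMS (ENSG00000176890, chromosome 18, 657604 to 673578, plus strand) had 3934, 4398 and 5178 normalized counts in the siNeg libraries and 3237, 4247 and 4346 in those of siCENPF. It had 3547, 4077 and 4357 in the siFOXM1 libraries and 3796, 3839 and 4166 in those of both siRNAs. All groups overlapped siNeg, although each knockdown was lower within 3 of 3 numbers. The means were 87.6%, 88.7% and 87.3% of siNeg, with log2 fold changes of -0.19, -0.17 and -0.19 (SE 0.13, limma adjusted p = 1.00, 0.857 and 0.855).

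With the block TYMS fell with both siRNAs (limma adjusted p = 0.0475). Of 9 settings that leave libraries out, that call was kept without replicate number 1, without the number 1 library of both siRNAs and without siNeg 2. The adjusted p ranged from 0.0106 to 0.477, the highest being without replicate number 3. For siCENPF the blocked value lay at the threshold (limma adjusted p = 0.0550, edgeR adjusted p = 0.0478). TYMS shares 967 exon bases, 39.1% of its merged exons, with ENOSF1 on the opposite strand and 183 bases with TYMSOS, its divergent noncoding RNA. Without a stated strand setting, it cannot be told how reads there were assigned.

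DTYMK (ENSG00000168393, chromosome 2, 241675742 to 241686991, minus strand) had 1652, 1764 and 2089 normalized counts in the siNeg libraries and 1519, 1564 and 1663 in those of both siRNAs. The siCENPF libraries had 1414, 1828 and 1662, and the siFOXM1 libraries 1444, 1638 and 1904. The groups overlapped. Its log2 fold changes were -0.17, -0.14 and -0.21 (limma adjusted p = 1.00, 0.879 and 0.812), and none was called with the block (lowest adjusted p = 0.0565, with both siRNAs).

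DUT (ENSG00000128951, chromosome 15, 48331011 to 48343373, plus strand) had 1789, 1971 and 2023 normalized counts in the siNeg libraries and 1425, 2008 and 1799 in those of siCENPF. It had 1656, 1960 and 1840 in the siFOXM1 libraries and 1651, 1792 and 1638 in those of both siRNAs. The siCENPF values spread most, with number 2 above 2 of the 3 siNeg libraries. Its log2 fold changes were -0.16, -0.085 and -0.19 (limma adjusted p = 1.00, 0.952 and 0.822), and the block called none. The annotation names 8 DUT pseudogenes by symbol, and reads that such copies could share cannot be traced in these counts.

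The salvage kinases differed from each other in how often they were lower. TK1 (ENSG00000167900, chromosome 17, 78174075 to 78187233, minus strand) had 2284, 2352 and 2752 normalized counts in the siNeg libraries and 1942, 2310 and 2365 in those of siCENPF. It had 2151, 2144 and 2482 in the siFOXM1 libraries and 2128, 2072 and 2356 in those of both siRNAs. Groups overlapped, and every knockdown was lower than siNeg within 3 of 3 numbers. The log2 fold changes were -0.16, -0.12 and -0.17 (limma adjusted p = 1.00, 0.879 and 0.818), and none was called with the block, where both siRNAs gave adjusted p = 0.0654.

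DCK (ENSG00000156136, chromosome 4, 70992538 to 71030914, plus strand) differed little from siNeg in the single knockdowns. The siNeg libraries had 1048, 953 and 1237 normalized counts, and those of siCENPF 1022, 1065 and 989. The siFOXM1 libraries had 1072, 997 and 1071, and those of both siRNAs 1008, 833 and 1016. With siFOXM1 it was lower in 1 of 3 numbers, and the log2 fold changes were -0.066, -0.037 and -0.18 (SE 0.11, limma adjusted p = 1.00, 0.983 and 0.815). The blocked 95% intervals ran from -0.22 to 0.092 for siCENPF and from -0.19 to 0.12 for siFOXM1. DCK shares 199 exon bases with MOB1B on the same strand.

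SAMHD1 (ENSG00000101347, chromosome 20, 36890229 to 36951843, minus strand) varied with replicate number far more than with siRNA. Libraries 1 to 3 of siNeg had 4336, 1156 and 1340 normalized counts, and those of siCENPF 5091, 1002 and 1133. The siFOXM1 libraries had 2516, 940 and 1185, and those of both siRNAs 2587, 1044 and 1090. The 4 libraries numbered 1 held 2516 to 5091, and the other 8 held 940 to 1340, without overlap. Of all genes tested, 4.29% had their 4 libraries numbered 1 above the rest, and SAMHD1 was the only member among them.

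Interferon-stimulated genes, which cells switch on in response to interferon or foreign nucleic acid, moved with SAMHD1. In 27 of the 28 list members tested, every library numbered 1 was above the other 8. Their summed level was 30294 to 78829 normalized counts in the libraries numbered 1 and 6795 to 8600 in the rest. Within number 1 the list differed from siNeg by a median log2 of 0.43 with siCENPF, -0.98 with siFOXM1 and -0.97 with both, and SAMHD1 by 0.23, -0.78 and -0.74. Within number 2 SAMHD1 differed by -0.21, -0.30 and -0.15 and the list by 0.010, -0.25 and -0.079. Within number 3 SAMHD1 differed by -0.24, -0.18 and -0.30 and the list by -0.58, -0.0052 and -0.59. What part interferon signalling had in the SAMHD1 differences was not tested.

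**Figure D3:**
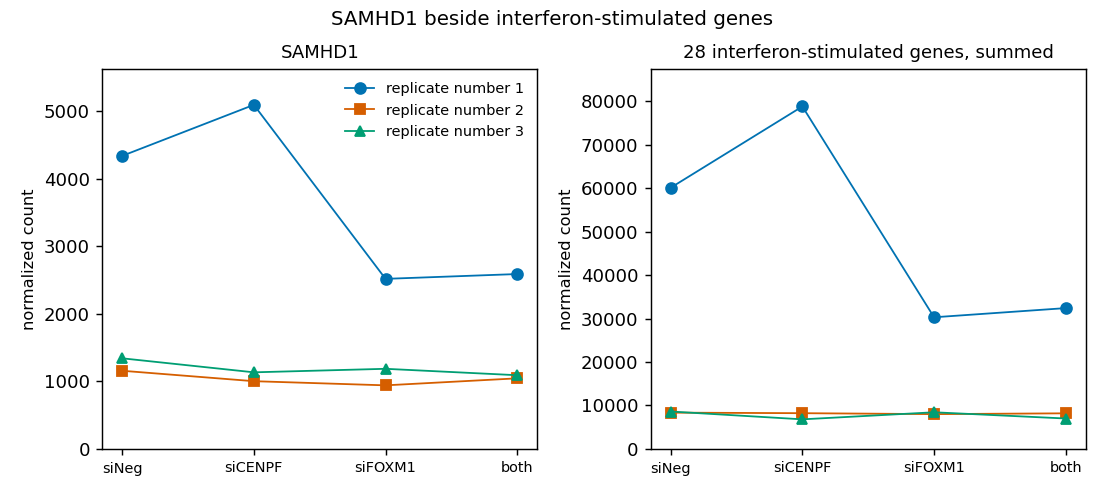
Normalized count of SAMHD1 (left) and summed normalized count of 28 interferon-stimulated genes (right) in the 12 libraries by group, with lines joining libraries of 1 replicate number and linear axes from 0. Both are high in the libraries numbered 1, highest there with siCENPF, and lower there with siFOXM1 and with both siRNAs.

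The fitted log2 fold changes of SAMHD1 were -0.072, -0.42 and -0.40 with an SE of 0.78 (limma adjusted p = 1.00, 0.977 and 0.968), and with the block the SE was 0.22 and no comparison was called (adjusted p = 0.923, 0.351 and 0.384). For siCENPF the direction was not stable: edgeR on whole reads gave 0.080, and the authors' deposited table gave 0.081. SAMHD1 shares 1159 exon bases with TLDC2, on the opposite strand. CMPK2, an interferon-induced nucleotide kinase, was listed at 0 FPKM in every group. Other genes of the list were also low, such as MX1 at 0.0228 and RSAD2 at 0.0190 FPKM in siNeg, while IFIT3 and ISG15 stood at 31.4 and 28.3.

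Read together, the members stood below siNeg in all comparisons but were rarely called. With siCENPF all 8 log2 fold changes were below 0 by limma, though not SAMHD1 by edgeR or DESeq2 (0.080 and 0.085), with a median of -0.16, against -0.00059 and 50.2% below 0 over all genes. With siFOXM1 all 8 were below 0 (median -0.15, all genes -0.00065 and 50.2%), and with both all 8 were (median -0.19, all genes -0.0026 and 50.7%). Lower values within 3 of 3 numbers were found for 4, 7 and 8 of 8 members, where 17.6%, 22.0% and 21.3% of all genes did so. Libraries all below siNeg were found for 0, 1 (RRM2) and 2 (RRM1 and RRM2) members, where 4.44%, 6.83% and 6.58% of all genes did so. These comparisons share the siNeg libraries, so that their directions are not independent of each other.

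Limma called 0 of 8 members in each comparison with siNeg, where it called 0.337%, 0.66% and 0.458% of all genes. At an unadjusted limma p under 0.05, 0, 1 and 1 members passed, where 821, 1155 and 1093 of the 14857 genes did so. RRM2 was the member that passed with siFOXM1 and with both. With the replicate block 1, 1 and 3 members were called lower and none higher, where 4.52%, 8.72% and 7.9% of all genes were called in either direction. RRM2 was called in all 3, and RRM1 and TYMS with both siRNAs. DESeq2 and edgeR without a block called none. In the authors' deposited tables no member passed an adjusted p of 0.05. The lowest there was RRM2 with both siRNAs, with a log2 fold change of -0.45 and an adjusted p of 0.270.

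**Figure D4:**
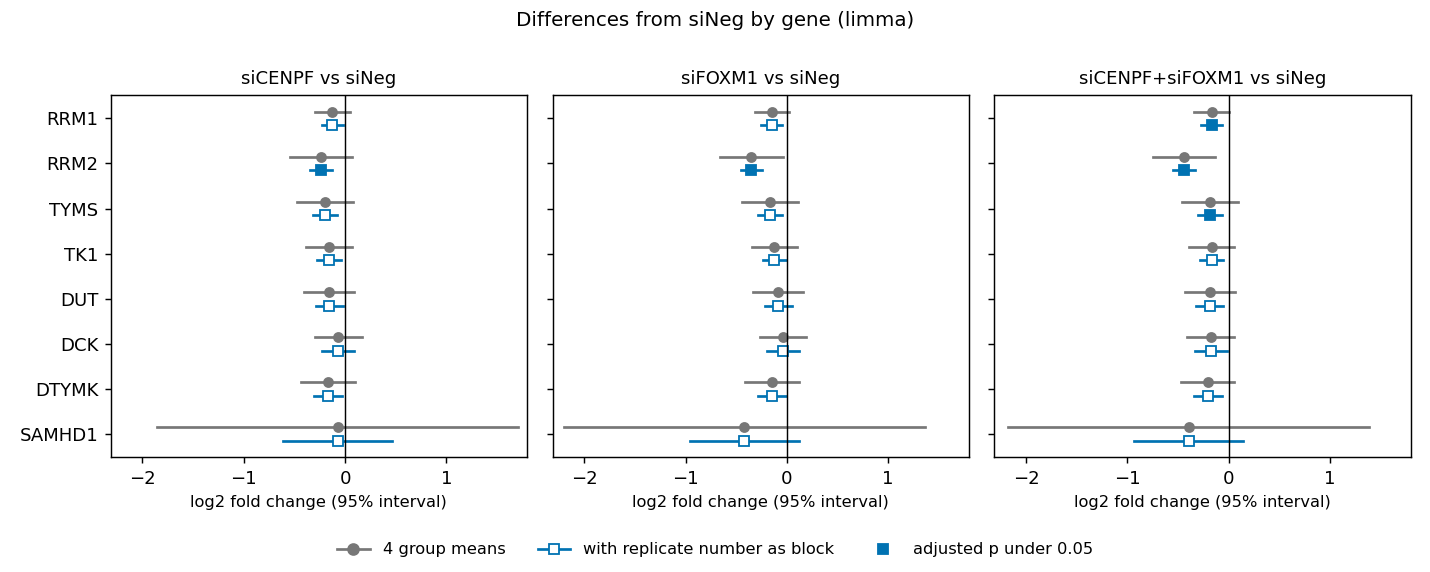
Log2 fold change against siNeg of each enzyme with its 95% interval (limma), in 3 panels for siCENPF, siFOXM1 and both siRNAs. Grey circles are the fit of 4 group means, blue squares the fit with replicate number as a block, and filled squares passed an adjusted p of 0.05. Estimates lie left of 0 for all 8 genes, RRM2 is filled in each panel, and the SAMHD1 intervals are the widest.

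One control library carried part of these differences. Of the 8 members, 7 (all but SAMHD1) had their highest value of the 12 libraries in siNeg 3, the library with the most reads, where 10.2% of all genes had theirs. Without siNeg 3 the median log2 fold change of the members was -0.082, -0.057 and -0.11 in the fit of group means, and 7, 7 and 8 of 8 were below 0. That fit keeps the other libraries numbered 3, which leaves the numbers uneven between groups. With the block the medians without siNeg 3 were -0.12, -0.10 and -0.15, against -0.16, -0.15 and -0.19 with all libraries. With the block and without siNeg 3, RRM2 was still called with siFOXM1 and with both siRNAs but not with siCENPF, and no other member was called. The S phase genes moved with the same library, with a median log2 deviation of 0.42 in siNeg 3 from the mean of 12 libraries. The part of depth in these values was not tested.

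Giving both siRNAs was compared with giving 1. Against siCENPF alone, 7 of 8 members were lower with both (median log2 fold change -0.042), and limma called none, where 0.0808% of all genes were called. The exception was TYMS at 0.0075, which DESeq2 put at -0.0031, while TK1 was -0.010 on normalized counts and 0.010 on FPKM. RRM2 was lower in 3 of 3 numbers, at -9.33%, -13.8% and -16.5%, with overlapping groups. With the block it was called (log2 fold change -0.21, limma adjusted p = 0.0435, where 1.46% of all genes were called), edgeR with the block gave adjusted p = 0.0518, and limma lost the call in 9 of 9 settings that leave libraries out, with adjusted p from 0.0611 to 0.314.

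Against siFOXM1 alone, 7 of 8 were lower with both (median -0.055), and no member was called in either fit, where limma called 0.00673% of all genes and 0.296% with the block. RRM2 differed there by -4.96%, -8.66% and -5.03% within the numbers (log2 fold change -0.093, blocked 95% interval -0.20 to 0.015). The interaction sets the effect of both siRNAs against the added log2 effects of each alone. It was above 0 for 7 of 8 members, all but DCK, although SAMHD1 was below 0 by edgeR and DESeq2 (-0.053 and -0.060). The median was 0.10, against 0.00087 and 49.7% below 0 over all genes. No member was called in either fit (0.0% of all genes by limma, 0.841% with the block). The siNeg libraries enter this contrast with a plus sign. CENPF itself was higher with both siRNAs than with siCENPF alone (log2 fold change 0.55, limma adjusted p = 0.000188 with the block). For TYMS the interaction was 0.18 (blocked 95% interval 0.0068 to 0.35, limma adjusted p = 0.545 with the block) and for RRM2 0.14 (-0.0081 to 0.30, adjusted p = 0.631).

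S phase genes outside nucleotide supply, 43 in number and all tested, were also low. Their median log2 fold changes were -0.21, -0.16 and -0.26, with 42, 40 and 42 of 43 below 0, and limma called none. With the block 14, 18 and 26 fell and none rose, where 4.52%, 8.72% and 7.9% of all genes were called in either direction. MCM3, a subunit of the replicative helicase, fell in all 3 comparisons with the block, by 0.27, 0.26 and 0.35 on the log2 scale (limma adjusted p = 0.00101, 0.000905 and 3.84e-05). GINS1, a subunit of the helicase's GINS partner, had the lowest blocked adjusted p with siCENPF (log2 fold change -0.51, limma adjusted p = 0.000525), and MCM6 with siFOXM1 (-0.39, adjusted p = 2.05e-05) and with both (-0.40, adjusted p = 1.59e-05). In bulk RNA, fewer cells in S phase and less RNA per cell cannot be told apart.

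Beside these genes, the members were spread through the range. RRM2 was lower than 26 of the 43 with siCENPF, 38 with siFOXM1 and 39 with both. RRM1 was lower than 10, 20 and 10, and DCK than 2, 7 and 12. RRM2 was thus near the low end of the S phase genes where FOXM1 siRNA was given, and DCK near the high end in the single knockdowns.

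**Figure D5:**
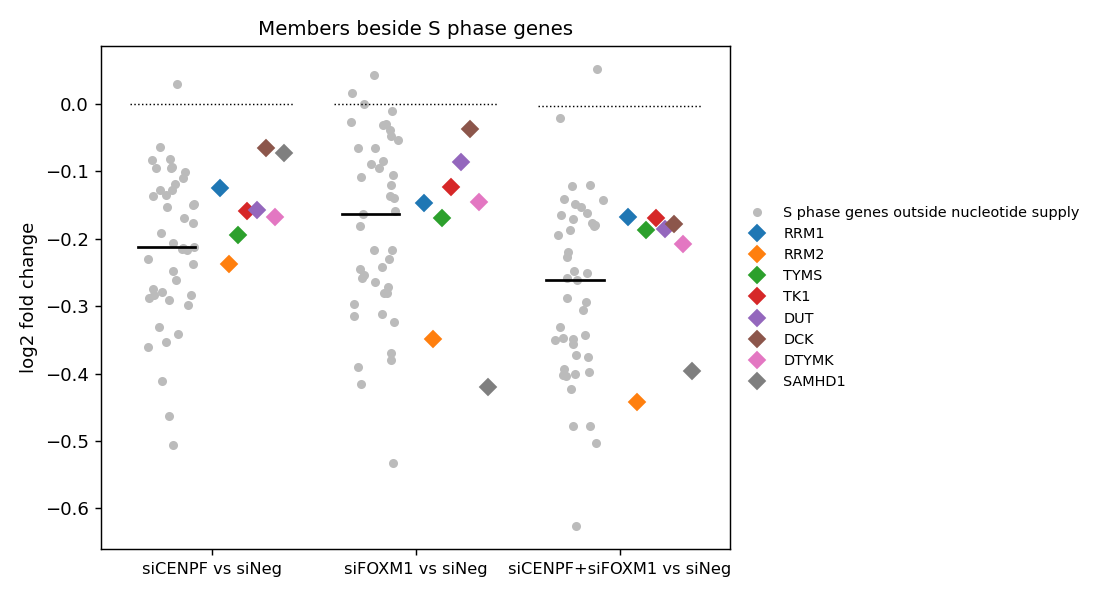
Log2 fold change against siNeg (limma, 4 group means) of 43 S phase genes outside nucleotide supply (grey circles, black bar at the median) and of the 8 enzymes (coloured diamonds) in the 3 comparisons, with the median of all genes as a dotted line. RRM2 lies at -0.24, -0.35 and -0.44, and DCK at -0.066, -0.037 and -0.18.

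E2F1, which activates genes of this group, was at 76.7%, 82.2% and 75.7% of siNeg. It fell in all 3 comparisons with the block (log2 fold change -0.38, -0.29 and -0.39, limma adjusted p = 0.00200, 0.0126 and 0.000927) and in none without it. The blocked call held in 9, 4 and 8 of 9 settings that leave libraries out. Over all genes the block called 4.52%, 8.72% and 7.9% in the 3 comparisons. Of 13 E2F factors and partners, the block called 0 higher and 2 lower with siCENPF, 1 and 1 with siFOXM1 and 2 and 3 with both. E2F2 fell with siCENPF and with both (-0.51 and -0.64, limma adjusted p = 0.0299 and 0.00366), and the repressor E2F7 fell with both (-0.32, adjusted p = 0.00395). RBL2, a repressive pocket protein, rose with siFOXM1 (0.35, limma adjusted p = 0.00625), and E2F4, its usual partner, rose with both (0.22, adjusted p = 0.0281).

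Other nucleotide genes were rarely called, and only with the block. The block called 4.52%, 8.72% and 7.9% of all genes with siCENPF, with siFOXM1 and with both. Of 17 partners in deoxynucleotide metabolism, all tested, 10 were above 0 and 7 below in each comparison, with medians of 0.031, 0.080 and 0.030, and limma called none. With the block CMPK1, a pyrimidine monophosphate kinase, rose with siCENPF (0.18, adjusted p = 0.0445, kept in 2 of 9 such settings), and DCTPP1, which degrades dCTP and its modified forms, fell with both (-0.27, adjusted p = 0.0497). DCTD, which deaminates dCMP toward the TYMS substrate, stood at 97.4%, 107% and 99.4% of siNeg and was called in neither fit. In the folate cycle, which supplies the cofactor of TYMS, MTHFD1 fell with siFOXM1 and with both in the blocked fit (-0.21 and -0.23, limma adjusted p = 0.0130 and 0.00494).

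No gene of de novo pyrimidine synthesis, of 5 tested, was called in any fit, with medians of -0.094, -0.062 and -0.11. Of 12 purine synthesis genes, 7 were below 0 with siCENPF, 11 with siFOXM1 and 11 with both (medians -0.0035, -0.096 and -0.11), and the block called PPAT lower with siFOXM1 (-0.22, limma adjusted p = 0.0299) and PRPS1 lower with both (-0.19, adjusted p = 0.0381). Of 9 salvage genes for bases and ribonucleosides, PNP, the purine nucleoside phosphorylase, fell with siCENPF (-0.38, limma adjusted p = 0.000102 with the block) and with both (-0.26, adjusted p = 0.00506). Of 19 p53 targets tested, the block called 2 higher and 3 lower with siCENPF, 2 and 0 with siFOXM1 and 1 and 0 with both, and limma without it called none. SESN2 rose in all 3 (log2 fold change 0.54, 0.61 and 0.60), and BBC3 rose with siCENPF and with siFOXM1 (0.65 and 0.61). AEN and PPM1D fell with siCENPF (-0.25 and -0.35, limma adjusted p = 0.0183 and 0.0278 with the block). Beside the block calls of these lists, 4.52%, 8.72% and 7.9% of all genes were called with it in the 3 comparisons.

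Levels were compared between the members per length only. In FPKM the siNeg means ran from TYMS at 39.4 ± 5.89 (SD, n = 3) through RRM2 at 28.2 ± 5.34, SAMHD1 at 22.4 ± 17.1, TK1 at 22.0 ± 2.39, DTYMK at 17.4 ± 2.28, RRM1 at 12.8 ± 1.08 and DUT at 9.62 ± 0.805 to DCK at 5.15 ± 0.665. The ranges of TYMS, RRM2 and SAMHD1 each overlapped the next in this order, and from TK1 down each lay above the next. The order rests on the authors' gene lengths, which for RRM2 (15628 bases) exceed its annotated span of 10722 bases. Rescaled to merged exons of the annotation, SAMHD1 moved from place 3 to place 8, because its merged exons span 11261 bases against a width of 5300, and RRM1 moved from place 6 to place 4.

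In siFOXM1 TYMS (30.3 to 38.1 FPKM) lay above RRM2 (20.0 to 24.1) without overlap, as it did with both siRNAs, while in siNeg and siCENPF their ranges overlapped. TK1 was 0.543 to 0.593 times TYMS in siNeg and 0.537 to 0.620 times in the other groups. DCK was 0.216 to 0.245 times TK1 in siNeg. These proportions also change with the gene lengths used. The ratio of TK1 to TYMS was higher than in siNeg within 3 of 3 numbers with siCENPF (log2 difference 0.047, 0.024 and 0.034), and within 2 of 3 with siFOXM1 and with both. An exact permutation test of 3 libraries against 3 could not pass the threshold for these ratios.

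The profiles of the members over the 12 libraries were compared with each other. Likeness was measured as the root mean square difference of log2 values after each profile was centred on its mean. TYMS and DTYMK were the closest pair (0.056), followed by TK1 with DTYMK (0.064) and TK1 with TYMS (0.065). RRM2 was 0.15 from RRM1 and 0.25 from DUT, the largest distance among the 7 members other than SAMHD1. SAMHD1 was at least 0.81 from every other member. TYMS, TK1, DUT and DTYMK were low in the libraries numbered 1, with mean log2 deviations from their group means of -0.17, -0.096, -0.14 and -0.15, while RRM2 was lowest in number 2 (-0.18) and highest in number 3 (0.20).

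Among 10072 genes with a mean of at least 100 normalized counts, the profile nearest to RRM2 was that of MCM5, a helicase subunit, at 0.078, and then POLA1, the catalytic subunit of DNA polymerase alpha, at 0.091. MCM5 stood at 2124, 2055 and 2632 in siNeg and 1712, 1480 and 2075 with both siRNAs. Nearest to TYMS were HMGN2 (0.026) and ENOSF1 (0.039), the gene whose exons overlap it. DTYMK was nearest to ENOSF1 (0.065) and H2AFZ (0.065), and DUT to HMGN1 (0.050) and SPOP (0.052). SAMHD1 was nearest to IFIT5 (0.098) and DDX60L (0.11), both interferon-induced. RRM1 was nearest to CCT7 and U2AF2, TK1 to SLC25A5 and CACYBP, and DCK to PTGES3 and RBM17.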

How the data were processed

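PolyA RNA of hTERT-RPE1 cells was sequenced in 12 libraries, 3 for each of 4 groups taken from the sample labels. Per the submitters' processing notes, bcl2fastq, Trimmomatic, TopHat and edgeR were used with hg38, and no versions or strand setting are given in the sources used here. The authors deposited normalized counts (a signal scaled to similar library sizes, summing to 1.85e+07 to 1.98e+07), FPKM and CPM per gene, and edgeR tables with log2 fold changes, likelihood ratio scores and p-values. The authors' CPM values are whole multiples of 1 read within 0.01 reads. Reads recovered from the deposited CPM and FPKM, each rounded to whole reads, agreed in 100% of 172773 values. Reads recovered from FPKM were whole in all libraries for 14556 genes.

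Normalized counts were tested as log2(value + 1) with limma 3.58.1 (trend and robust) in R 4.3.3, on the 14857 genes that reached 10 normalized counts in 3 or more libraries. All 12 libraries and 4 group means entered 1 fit, with Benjamini-Hochberg adjustment at 0.05 over all genes. A fold change on this scale understates changes of low genes. edgeR 4.0.16 on the whole reads called 49, 99 and 68 genes in the comparisons with siNeg, and DESeq2 1.42.0 was run as well. Other alternatives were a pseudocount of 10, FPKM, no filter, only the groups compared, and libraries left out. The scripts were tested on simulated data. Ratios and figures used Python 3.11.15, numpy 2.4.6, scipy 1.17.1 and matplotlib 3.10.9.

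Replicate numbers come from the labels. All 18 pairs of libraries with the same number deviated together (r of 0.272 to 0.639, threshold 0.1). The fit with the number as a block is therefore given where it changes a call. The 36 pairs with different numbers gave -0.510 to 0.0248. Deviations from a group mean sum to 0, which pulls these values down where same-number values are positive, so they are not separate evidence.

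The members and gene lists were chosen with earlier results of these data known. Named genes are the members, both targets, up to 4 called genes with the smallest adjusted p per list and comparison, RRM2B, DCTD, E2F1 and CMPK2, the 2 nearest profiles of each member, and genes with overlapping exons. One further gene of this rule is not reported here. Gene annotation was GENCODE (hg38), and promoter sequences came from RefSeq.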

Additional observations from a re-analysis of the deposited data

How the results depend on the processing

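The count of genes called was what moved most. Without a block and with all 12 libraries, limma called 50, 98 and 68 genes against siNeg for siCENPF, siFOXM1 and both siRNAs, 12 and 1 for both against siCENPF and against siFOXM1, and 0 for the interaction (353 at an unadjusted p under 0.05). In the same order the replicate block, which uses the pairing by number, gave 671, 1295, 1174, 217, 44 and 125, edgeR with the replicate block 708, 1323, 1244, 226, 41 and 120, and DESeq2 135, 244, 166, 32, 4 and 21. Fitting only the groups compared gave 6, 41, 35 and 3 in the first 4. Leaving out libraries gave 1 to 29, 2 to 111, 3 to 86 and 0 to 14 in those 4, and 0 to 3 for the interaction. The members called rose from 0 to 1, 1 and 3 against siNeg and 1 against siCENPF with the replicate block, and to 2, 1 and 3 against siNeg with edgeR and the block; the block changed the call of no other member. The cause of these differences was not tested.

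Directions that turned were those of values near 0 or of SAMHD1. SAMHD1 with siCENPF was 0.085 by DESeq2 and 0.080 by edgeR, and its interaction was -0.060 and -0.053. Both against siCENPF, TYMS was -0.0031 by DESeq2 and TK1 0.010 on FPKM. With libraries left out, log2 fold changes against siNeg in the fit of group means ranged as follows. DCK ran from -0.18 to 0.062 with siCENPF and from -0.12 to 0.066 with siFOXM1. SAMHD1 ran from -0.82 to 0.53, from -0.84 to 0.18 and from -0.82 to 0.20 in the 3 comparisons. In that fit a left-out library leaves the replicate numbers uneven between groups. With the block SAMHD1 ran from -0.34 to 0.069, from -0.55 to -0.24 and from -0.52 to -0.22, so that only the siCENPF direction turned. For both against siCENPF the ranges were -0.13 to 0.084 (TYMS), -0.099 to 0.063 (TK1), -0.17 to 0.080 (DUT), -0.19 to 0.0092 (DCK), -0.14 to 0.052 (DTYMK), -0.75 to 0.43 (SAMHD1). For both against siFOXM1 they were -0.056 to 0.012 (RRM1), -0.17 to 0.0014 (RRM2), -0.10 to 0.048 (TYMS), -0.10 to 0.023 (TK1), -0.16 to 0.040 (DTYMK), -0.40 to 0.44 (SAMHD1). For the interaction they were -0.0058 to 0.25 (RRM2), -0.082 to 0.17 (DUT), -0.24 to 0.097 (DCK), -0.50 to 0.85 (SAMHD1). Log2 ratios ranged from -0.18 to 0.43 and -0.079 to 0.52 for RRM2B to RRM2 in the single knockdowns, -0.012 to 0.076, -0.0032 to 0.10 and -0.0052 to 0.059 for TK1 to TYMS, -0.070 to 0.049 for DCK to TK1 with both, and -0.72 to 0.66, -0.69 to 0.34 and -0.65 to 0.38 for SAMHD1 to RRM1. In the order of levels 5 members changed place with merged exon lengths and 0 to 4 with libraries left out.

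With 3 libraries a group, differences of the size seen in RRM2 passed the test only where the replicate number was a block, and the block rests on numbers that the labels give without saying what they share. In the fit of group means no member passed the test. SAMHD1 was high in the 4 libraries numbered 1, and the other 7 members were highest in siNeg 3. Where exons overlap another gene or pseudogenes exist, it could not be told how reads were assigned.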
